A study of Sus scrofa with 50 samples.

Results

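Long assembled transcripts without a Swiss-Prot match were the transcripts of the deposited pig assembly that gave no hit in the translated search against Swiss-Prot and were at least 1000 bases long, by the length written in each transcript's name. They numbered 13006 of the 57085 transcripts in the assembly. The comparison set was the 34188 transcripts of at least 1000 bases that had a Swiss-Prot hit, called matched transcripts below. No expression value was used to choose the members. Every comparison of members with matched transcripts is a description, with no test.

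Korean minipigs of ET-type and L-type were compared, with 5 animals of each, and heart, kidney, liver, lung and spleen were taken from every animal, which gave 50 libraries. Total RNA was extracted and messenger RNA libraries that keep the strand were made from it. No treatment, age, sex or genetic background is stated for either group, and the words behind ET and L are not spelled out in the labels. All values are TPM (transcripts per 1000000), a measure of the share of a library's transcripts that scales for transcript length, so levels can be compared between transcripts. Each library's values sum to 1000000 TPM, and therefore the level of 1 transcript also moves when others take more or less of the library. In these bulk samples, fewer cells of a type and less RNA per cell cannot be told apart. Depth is unknown from TPM, so no counting interval could be given, and values below 1 TPM are read as low levels only.

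BLASTX translates a transcript in every reading frame and searches for a similar protein. Swiss-Prot is a hand-curated protein collection. A long transcript without a hit can be a long noncoding RNA, an untranslated end or an intron left in a messenger RNA, a run of repeats, a gene fragment, or the message of a protein that the collection lacks. Long noncoding RNAs are commonly present at lower levels and in fewer tissues than messenger RNAs. De novo assembly joins overlapping reads without a genome, and its output names each sequence by a node, a length and a locus number shared by alternative forms. Here each name also carries the tissue and the type of the pigs behind the assembly it came from.

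The tissue labels were checked with marker proteins by their Swiss-Prot names. All 5 markers of heart, kidney, liver and lung were found, as were all markers of lymphocytes, macrophages and red cells. The kidney library of ET-type animal S0235 went against its label. Its 5 kidney markers summed to 4.27 TPM, against 1180 to 8295 TPM in the other 9 kidney libraries, and its 5 lymphocyte markers summed to 1249 TPM, against 2.09 to 22.5 TPM. The main counts and shares that rest on kidney are given with and without it, while means of single transcripts include it. It is called the library labelled kidney of S0235. No 2 libraries were identical, and the highest correlation between any libraries was 0.935.

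The members were shorter than matched transcripts and seldom carried a long reading frame. Their median length was 2115 bases, against 3403 bases for matched transcripts, and the longest, Lymph.L.NODE_51, had 19189 bases. A predicted protein was listed for 5088 members (39.1%), against 83.3% of matched transcripts. The predicted protein had a median of 127 amino acids, against 323. It covered a median of 16.5% of the member's length, against 30.5%, and more than 50% of the length in 86 members. These predicted proteins lay on the minus strand of the assembled sequence in 49.1% of members and 49.98% of matched transcripts. The share of members with a predicted protein was 27.1% at 1000 to 1500 bases and 63.5% at 5000 bases and more. The matched shares in those length classes were 66.3% and 91.1%.

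A few members did meet Swiss-Prot through the predicted protein instead of the whole transcript. There were 64 such members (0.492%), against 69.1% of matched transcripts. The entries hit most often were ARRD3 (an arrestin-domain adaptor protein) and HMGA1 (a chromatin protein that binds AT-rich DNA), with 3 members each. A predicted membrane-spanning stretch was listed for 804 members (6.18%), against 19.6%. The median assembly coverage written in the names was 64.8 for members and 146.5 for matched transcripts. The members lay in 12778 loci, so most were the sole member of their locus.

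The length limit cuts through a continuous range. The transcripts just inside it, each of 1000 bases, were Heart.L.NODE_74772 with a heart mean of 11.8 TPM, Kidney.L.NODE_86450 with a kidney mean of 4.79 TPM and Kidney.L.NODE_86457 with a kidney mean of 4.59 TPM. Just outside it, at 999 bases, lay Backfat.ET.NODE_63764 with a lung mean of 1.79 TPM, Backfat.ET.NODE_63767 with a kidney mean of 6.01 TPM and Brain.ET.NODE_116172 with a lung mean of 5.36 TPM. At the other end, Liver.ET.NODE_40 had 16995 bases, a predicted protein of 369 amino acids and a liver mean of 9.99 TPM. Its highest value in any other tissue's library was 0.996 TPM. The third of the longest, Tenderloin.ET.NODE_101, had 16299 bases.

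Most members were seen in at least 1 tissue, at low levels. Of the 13006 members, 12581 (96.7%) reached 1 TPM in at least 1 library, and 11665 (89.7%) had a mean of at least 1 TPM in at least 1 tissue. The matched share for the tissue mean was 91.8%. Only 22 members were listed at 0 in every library, against 29 matched transcripts. The highest tissue mean of a member had a median of 4.11 TPM, against 7.20 TPM for matched transcripts. A mean of 10 TPM was reached by 20.2% of members and 41.2% of matched transcripts, and a mean of 100 TPM by 140 members (1.08%) and 5.48% of matched transcripts.

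Members reached 1 TPM in fewer tissues than matched transcripts. By tissue means, 2701 members (20.8%) reached it in 1 tissue, 1982 in 2 tissues, 1815 in 3, 1787 in 4 and 3380 (26.0%) in all 5. Without the library labelled kidney of S0235 these were 2694 in 1 tissue and 3339 in all 5. Among matched transcripts 12.4% reached it in 1 tissue and 47.2% in all 5. In all 50 libraries the level was at least 1 TPM for 846 members (6.50%) and for 22.3% of matched transcripts. Members without any tissue at 1 TPM made up 10.3%, against 8.22%.

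In unscaled TPM, lung held the most members above 1 TPM and heart, liver and spleen of ET-type the fewest. In lung, 8409 to 8948 members reached 1 TPM in the 5 ET-type libraries and 8319 to 9402 in the 5 L-type libraries. These counts were 4721 to 6213 and 3844 to 5370 in heart, and 3834 to 6260 and 5090 to 5938 in liver, so the types overlapped in these 3 tissues. Median-ratio scaling sets each library by the middle transcript in place of the sum. Under it both types together lay at 7602 to 7981 in lung, 5781 to 7892 in kidney, 5642 to 6921 in heart and 4578 to 6748 in liver. The median stayed highest in lung, at 7827, against 7239 in kidney. Heart then overlapped L-type spleen, at 5926 to 6883.

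Kidney and spleen were the tissues in which the types separated. In kidney, 6340 to 7393 members reached 1 TPM in ET-type and 7445 to 8640 in L-type, and the lowest and highest ET-type counts came from libraries other than the one labelled kidney of S0235. In spleen the counts were 4560 to 5823 in ET-type and 6235 to 8159 in L-type. Median-ratio scaling made the kidney counts overlap (5781 to 7308 and 6983 to 7892). The spleen counts stayed apart under it (5108 to 5778 and 5926 to 6883). The direction in spleen was shared with matched transcripts, of which 52.7% to 60.9% reached 1 TPM in ET-type and 64.8% to 74.99% in L-type. The mean spleen count was 27.1% lower in ET-type for members and 17.5% lower for matched transcripts. Under median-ratio scaling it was 13.5% and 9.36% lower. In kidney the matched counts overlapped between the types, at 20340 to 23123 in ET-type and 22559 to 25475 in L-type.

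**Figure D1:**
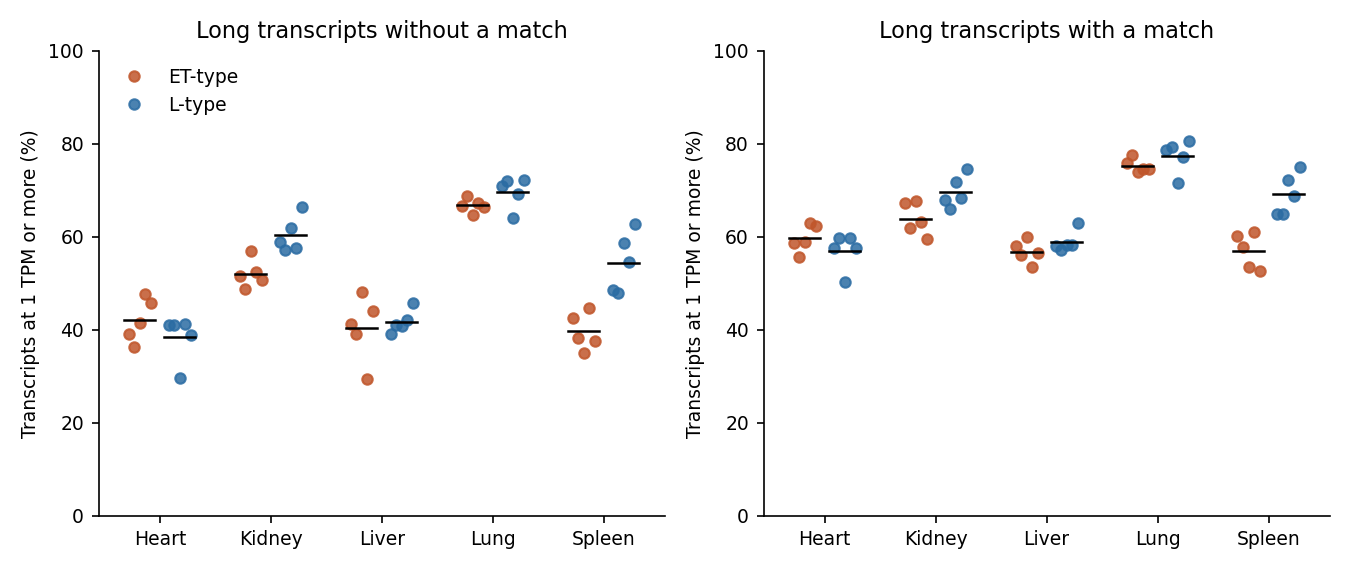
Share of long transcripts at 1 TPM or more (percent, vertical axis from 0) in each of the 50 libraries, for members on the left and matched transcripts on the right, with 1 point per library, coloured by ET-type or L-type, and a line at the mean of each group of 5. The lung libraries hold 8319 to 9402 members at 1 TPM, and in kidney and spleen all L-type points for members lie above all ET-type points.

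The share of each library's TPM that members took was small. It lay between 2.76% and 10.1% over the 50 libraries. Lung was highest, at 7.55% to 10.1% in ET-type and 8.04% to 8.89% in L-type, while heart lay at 3.46% to 5.19% and 2.76% to 4.73%. Spleen lay at 3.94% to 5.42% in ET-type and 5.27% to 6.75% in L-type.

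Tissue restriction was measured by tau, an index that is 0 for equal levels in all tissues and 1 for a transcript seen in a single tissue. It was computed per animal over its 5 tissues on log2(TPM + 1), for transcripts with at least 1 TPM in 1 or more of them. The median over members lay between 0.512 and 0.606 in the 10 animals, and the median over matched transcripts between 0.405 and 0.487. The members were higher in 10 of 10 animals, by 0.113 ± 0.0078 (SD, n = 10). Without animal S0235, whose kidney library went against its label, the difference was also 0.113. These are descriptions of the same animals over different transcripts, and no p was computed for them.

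The gap was present in every length class, and over all lengths in every class of level. By length class, from 1000 to 1500 bases up to 5000 bases and more, the mean difference in tau was 0.120, 0.129, 0.134, 0.112 and 0.111. Levels bear on tau, since low transcripts are close to the pseudocount. With transcripts split by their highest tissue mean, the median tau at 1 to 2 TPM was 0.462 for members and 0.437 for matched transcripts. At 10 TPM and more it was 0.490 and 0.336, so the gap was wider among the higher transcripts. At 1 to 2 TPM it was not seen in the shortest members, with a median tau of 0.461 against 0.470 for matched transcripts at 1000 to 1500 bases and 0.447 against 0.449 at 1500 to 2000 bases. On linear TPM in place of log2 the difference was smaller, at 0.0578 ± 0.00691, and still positive in 10 of 10 animals.

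**Figure D2:**
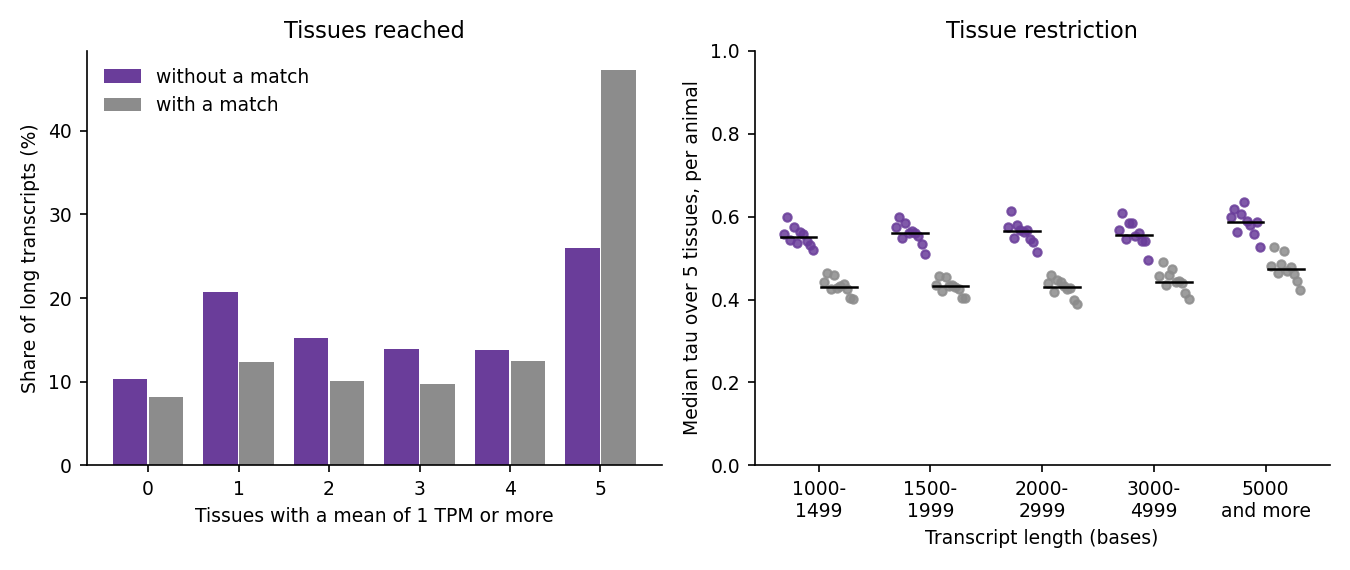
On the left, the share of members and of matched transcripts (percent, from 0) by the number of tissues with a mean of 1 TPM or more, and on the right the median tau of each of the 10 animals by class of length, with a line at the median over animals. Members reach all 5 tissues in 26.0% against 47.2%, and in each length class their line lies above that of matched transcripts.

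Members with a predicted protein had a higher tau than those without, while over all matched transcripts the order was the other way. Median tau over the means of the tissues was 0.537 for members with a predicted protein and 0.473 for those without, while in matched transcripts it was 0.378 and 0.402. Within members the split held in each length class, from 0.497 against 0.474 at 1000 to 1500 bases to 0.587 against 0.462 at 5000 bases and more. In matched transcripts of 5000 bases and more the order was that of members, at 0.407 against 0.402. The members' highest tissue means were close, with medians of 3.996 and 4.16 TPM. All 5 tissues were reached at 1 TPM by 22.8% of members with a predicted protein and 28.0% of those without. In matched transcripts these shares were 49.0% and 37.97%, the other way round.

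In unscaled TPM the tissue of the highest mean was most often lung, in members and matched transcripts alike. By tissue means, 46.2% of members were highest in lung, 21.2% in kidney, 12.2% in spleen, 11.8% in liver and 8.50% in heart. For matched transcripts these shares were 45.7%, 15.8%, 15.1%, 13.8% and 9.59%. The lung share depended on scaling. Under median-ratio scaling 25.4% of members were highest in lung, 23.3% in kidney, 19.4% in heart, 18.8% in liver and 13.1% in spleen. For matched transcripts these shares were 21.4%, 15.8%, 22.3%, 23.1% and 17.3%, so their most frequent tissue was then liver. Without the library labelled kidney of S0235, kidney was highest for 20.9% of members and 15.0% of matched transcripts in unscaled TPM, and for 23.6% and 15.7% under median-ratio scaling.

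Each tissue was then set against the mean of the other 4 in limma, a linear model with moderated variances, on log2(TPM + 1). Calls for a tissue needed the highest mean there, a log2 difference of 1 or more and an adjusted p under 0.05. The test took the 9619 members with a mean of at least 1 TPM over the 50 libraries. A member seen in 1 tissue alone enters only if it is high there, so these counts describe the tested members and are read beside the share over all tested transcripts. Lung was called for 2436 tested members (25.3%), where 24.4% of all tested transcripts were called. Kidney was called for 1165 (12.1%, all transcripts 9.89%). Without the library labelled kidney of S0235 it was called for 1340, and the share over all transcripts there is not given here. Liver was called for 828 (8.61%, all transcripts 8.63%), spleen for 715 (7.43%, all transcripts 8.71%) and heart for 487 (5.06%, all transcripts 5.38%). In all, 58.5% of tested members were called for 1 of the 5 tissues, where 57% of all tested transcripts were. Under median-ratio scaling, 900 members were called for heart and 1122 for lung, and the shares over all transcripts moved with them, to 9.88% and 11.03%.

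The members with the largest tissue differences were high in 1 tissue and near 0 in the rest. In liver the first was Liver.L.NODE_28756 (3040 bases, with no predicted protein). Its liver libraries lay at 434 to 1765 TPM with a median of 770.0, and no library of another tissue exceeded 0.854 TPM. Its log2 difference from the other tissues was 9.47 ± 0.118 (SE). Its locus also held a transcript matched to SYEM, the mitochondrial glutamate-tRNA ligase, and over the 50 libraries the correlation between both was 0.132. Liver.L.NODE_45765 (2007 bases) was even across livers, at 218 to 427 TPM. Liver.ET.NODE_42485 (1827 bases) was not, at 33.9 to 1251 TPM, with 0.595 TPM as its highest value elsewhere.

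In lung the leading member was Lung.ET.NODE_43470 (2179 bases, no predicted protein), at 74.0 to 1137 TPM with a median of 376. No other tissue's library exceeded 0.539 TPM, and the log2 difference was 8.05 ± 0.213 (SE). The next members each shared a locus with a matched transcript whose level they followed. Lung.L.NODE_27637 (3677 bases, lung mean 383 TPM) shared its locus with PIGR, the receptor that carries polymeric antibodies across epithelia, and correlated with it at r = 0.958. Lung.L.NODE_40751 (2820 bases, lung mean 141 TPM) shared its locus with TXND6, a thioredoxin-domain protein, at r = 0.991. These correlations are over 50 libraries of 5 tissues and describe the tissue difference that both transcripts have.

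In heart the first was Heart.L.NODE_25880 (3146 bases, no predicted protein), at 226 to 511 TPM with a median of 358. Its highest value in any other tissue was 1.58 TPM, and its log2 difference was 7.92 ± 0.108 (SE). Heart.L.NODE_53332 (1564 bases) had a mean of 330.5 TPM with a wider range, from 71.5 to 725 TPM. Heart.L.NODE_33100 (2576 bases) had a mean of 105 TPM and shared its locus with ABLM1, an actin-binding LIM-domain protein, at r = 0.987.

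The kidney members showed the odd library most plainly. Kidney.L.NODE_9213 (4965 bases) had a kidney median of 112 TPM and a highest value of 529.9 TPM, and its 40 other libraries stayed at or below 0.147 TPM. The library labelled kidney of S0235 held 0.0115 TPM, inside the range of the other tissues. Kidney.L.NODE_58503 (1540 bases) likewise had a lowest kidney value of 0.698 TPM and a median of 149 TPM. Kidney.L.NODE_36038 (2404 bases, predicted protein of 110 amino acids) had a lowest value of 0.0249 TPM and a median of 73.8 TPM.

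The leading spleen members had low but measurable levels in other tissues. Lung.L.NODE_87443 (1308 bases) had 75.7 to 231 TPM in spleen and at most 6.58 TPM in other tissues, a log2 difference of 6.44 ± 0.218 (SE). Lymph.L.NODE_90952 (1306 bases) had a spleen mean of 121 TPM. Heart.L.NODE_64346 (1228 bases) was much higher, with 376 to 927 TPM in spleen, but reached 201 TPM in a library of another tissue. The 15 calls of members named in these 5 tissues had adjusted p-values of 2.43e-16 or below in limma, and all of them held in every alternative tried.

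**Figure D3:**
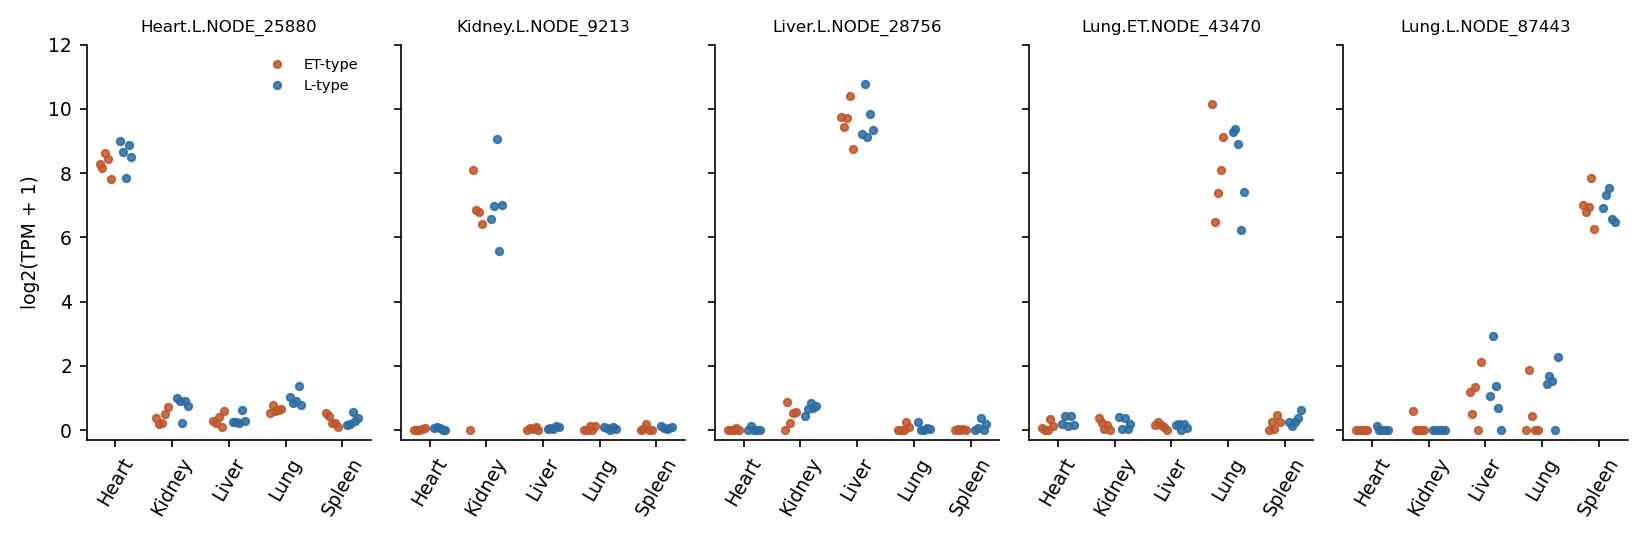
Levels, as log2(TPM + 1) on the vertical axis, in the 50 libraries for the member with the largest difference in heart, kidney, liver, lung and spleen, from left to right, with 1 point per library, coloured by ET-type or L-type. Each member is high in its own tissue, and 1 ET-type kidney point of Kidney.L.NODE_9213, the library labelled kidney of S0235 at 0.0115 TPM, lies with the other tissues.

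The most abundant members were not the most restricted. Spleen.L.NODE_74566 (1569 bases, predicted protein of 198 amino acids) was the highest member of all, with a lung mean of 6799 TPM and a range of 2609 to 12794 TPM. Its means were 441 TPM in liver, 236 in spleen, 164 in kidney and 70.2 in heart. Lymph.ET.NODE_86923 (1175 bases) was high in every tissue. Its means were 1891 TPM in liver, 1887 in heart, 1354 in lung, 766 in kidney and 286 in spleen. Yet 1 kidney library, that of L-type animal S0349, held 1.27 TPM of it, and a heart library held 4965 TPM.

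Further abundant members were also present in several tissues. Lung.ET.NODE_30735 (2898 bases) had means of 1609 TPM in kidney, 1447 in lung, 1074 in liver, 835 in heart and 254 in spleen. Its locus mate DEN2B, a regulator of Rab GTPases, correlated with it at r = 0.204. Heart.ET.NODE_24741 (2797 bases) had 1114 TPM in heart and 147 in spleen, and its locus held a transcript matched to LORF2, the second protein of the LINE-1 mobile element (r = 0.670). Reads from a repeat can be divided among its many copies, and how far that touches its level was not tested. Tenderloin.L.NODE_49188 (1529 bases, predicted protein of 195 amino acids) was highest in spleen at 1346 TPM, with 785 in lung and 601 in kidney. Liver.ET.NODE_51733 (1466 bases), also highest in spleen, had a mean of 1112 TPM there. Liver.L.NODE_68431 (1231 bases, predicted protein of 204 amino acids) had a liver mean of 1128 TPM that ran from 85.6 to 5490 TPM.

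Some members were steady across tissues. Among members with a mean of at least 10 TPM, Loin.ET.NODE_15675 had the lowest coefficient of variation over the 50 libraries, 26.7%, with 20.2 ± 5.39 TPM (SD, n = 50) and a range of 12.97 to 38.1 TPM. Backfat.ET.NODE_50119 followed, with a mean of 64.8 TPM. Lung.ET.NODE_68463 was steady at a higher level, with a mean of 208 TPM and a range of 108 to 359 TPM. The names of these members point to assemblies of a muscle, fat and lung.

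Few members had a matched transcript in their own locus, and those that did varied in how closely they followed it. A matched transcript was in the locus of 751 members (5.77%). In 640 of them, over 611 loci, both reached 1 TPM in a tissue mean. The median correlation of log2 levels over the 50 libraries was 0.623 with quartiles of 0.298 and 0.870. It exceeded 0.8 in 217 members (33.9%) and was below 0 in 62. Both were highest in the same tissue for 412 (64.4%). The member's level was a median of 59.9% of its mate's, and 222 members were higher than the mate. Transcripts of a locus can share sequence, so the quantifier may split reads among them, and these correlations are given as descriptions with no p.

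The assembly tissue in the name was lung or kidney more often for members than for matched transcripts. Lung gave 2879 members (22.1%, against 15.0% of matched transcripts) and kidney 1786 (13.7%, against 8.72%). Brain gave 1720 (13.2%, against 17.2%) and backfat 7.19%, against 10.96%. Lymph gave 12.6% and 12.8%, liver 8.87% and 8.98%, and spleen 8.004% and 8.01%, which were nearly even. Names from the 5 sequenced tissues made up 56.7% of members and 45.8% of matched transcripts. Of the long transcripts of each assembly, members made up 41.4% in L-type kidney, 38.3% in L-type lung, 32.4% in ET-type lung and 26.1% in ET-type kidney, and 16.6% in L-type backfat, the lowest. L-type assemblies gave 8080 members (62.1%), against 56.8% of matched transcripts.

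Over the 5 sequenced tissues together, most members were highest in the tissue whose assembly named them. Among spleen names and among heart names, most were not. Of the 7084 members that bore the name of a sequenced tissue and reached a tissue mean of 1 TPM, 4571 (64.5%) had their highest mean in that tissue, against 54.0% of matched transcripts. By tissue, the shares for members and matched transcripts were 76.8% and 72.0% in lung, 65.7% and 57.7% in liver, 59.4% and 43.2% in kidney, 47.3% and 40.4% in spleen, and 46.0% and 34.3% in heart. The order held in each length class, with 61.9% against 52.5% at 1000 to 1500 bases and 69.2% against 61.6% at 5000 bases and more. Without the library labelled kidney of S0235 the share was 64.7% over the 5 tissues and 61.0% in kidney, against 53.9% and 43.3% of matched transcripts. With all libraries, members of any name were highest in lung in 46.2%, liver in 11.8%, kidney in 21.2%, spleen in 12.2% and heart in 8.50%. Members named for tissues that were not sequenced fell to the sequenced ones in their own way. Tenderloin names, from a skeletal muscle, were highest in lung for 36.9% of members and 41.9% of matched transcripts, and in heart for 35.6% and 25.7%. Under median-ratio scaling heart came first, with 54.6% and 46.3%. Whether the same animals or libraries gave the assembly reads is not given in the sources used here.

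**Figure D4:**
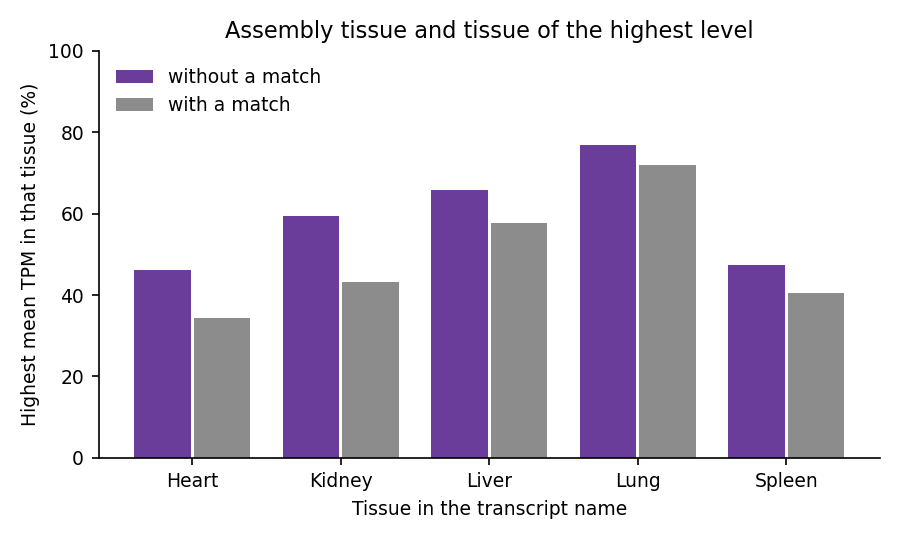
Share of members and of matched transcripts (percent, vertical axis from 0) whose highest mean TPM lay in the tissue of their assembly name, for the 5 sequenced tissues. Members exceed matched transcripts in each tissue, from 46.0% against 34.3% in heart to 76.8% against 72.0% in lung.

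Members named by an ET-type assembly were higher in ET-type more often than those named by the L-type assembly of the same tissue. In kidney and spleen, however, the members with an ET-type name were not mostly higher in ET-type. In lung, 68.7% of members named by the ET-type lung assembly were higher in ET-type, against 28.2% of those named by the L-type lung assembly. These shares were 68.4% and 30.5% in liver, 63.1% and 26.5% in heart, 48.3% and 7.50% in kidney, and 47.3% and 11.8% in spleen. In matched transcripts they were 51.4% and 25.8% in lung, 58.9% and 33.6% in liver, and 58.4% and 29.1% in heart. They were 47.0% and 11.2% in kidney and 31.5% and 7.67% in spleen, so matched transcripts had the same order in each tissue. Without the library labelled kidney of S0235 the kidney shares of members were 44.9% and 11.7%. The shares depended on scaling. Under median-ratio scaling those of members were 61.8% and 11.3% in kidney and 72.2% and 34.6% in spleen. L-type assemblies supplied more members than ET-type assemblies, so the calls between the types within each tissue are also given by direction over all transcripts.

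ET-type and L-type were compared in each tissue with limma, 5 animals against 5, with p-values adjusted over all transcripts tested. Outside spleen few members passed. In heart, 2 of 5592 tested members passed (1 higher and 1 lower in ET-type), where 0.0248% of all transcripts did, 5 higher and 3 lower. In liver 2 of 5855 passed, both lower in ET-type, where 0.012% of all transcripts did, 4 in number and all lower. In lung 7 of 9615 passed (3 higher, 4 lower), where 0.0768% of all transcripts did, 6 higher and 29 lower. In kidney none of 8336 passed, where 0% of all transcripts did. An unadjusted p below 0.05 was found for 844 members (10.1%), where 8.66% of all transcripts had one. Leaving out the library labelled kidney of S0235 also gave 0 members, with 769 at an unadjusted p below 0.05. The share over all transcripts beside these 769 is not given here. These small counts moved with single animals. In heart 92 members passed without S0242, 6 without S0349 and none to 2 without any other animal. In lung 26 passed without S0377, 11 without S0385 and 1 to 5 without any other animal. In liver 4 passed without S0355, and 2 or 3 otherwise. In kidney 1 passed without S0309. The shares over all transcripts in the fits without single animals are not given here, so their counts are not read as a result about the members. A fit over all 50 libraries with the animal as a replicate block called 95 members in heart, 103 in liver, 191 in lung and 414 in kidney. That fit shared the variance across tissues and tested members by their mean over the 50 libraries, so more than the block changed. Its share over all transcripts is not given here, so these counts are not read as a result about the members.

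Groups of 5 that did not overlap were counted as well. In heart 151 tested members (2.70%) had such groups, where 3.77% of all transcripts did. In kidney it was 176 (2.11%, all transcripts 1.62%), of which 169 were lower in ET-type, as were 644 of the 677 over all transcripts. In liver it was 55 (0.939%, all transcripts 1.08%) and in lung 319 (3.32%, all transcripts 3.27%). Without the library labelled kidney of S0235, 4 ET-type kidneys were set against 5, and 278 of 8049 members (3.45%, all transcripts 3.27%) did not overlap, 265 of them lower in ET-type. Over all transcripts 1241 of 1317 were lower there.

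In spleen 1344 of 6760 tested members (19.9%) passed, 1287 lower and 57 higher in ET-type. Of all transcripts 20.3% were called, 7208 lower and 248 higher, and the groups did not overlap for 1015 members (15.0%), where 15.9% of all transcripts were apart. The median log2 difference of all transcripts in spleen was -0.50. Median-ratio scaling moved it to -0.13 and left 2.50% of tested members, 113 lower and 50 higher, so the split of the directions depended on scaling. Leaving out single animals gave 568 members without S0242, 7 without S0276, 15 without S0326, 5 without S0377, 8 without S0384 and 11 without S0385. The spleen markers differed between the types too. The 2 hemoglobin chains summed to 109215 to 333290 TPM in ET-type and 5432 to 148157 in L-type. The 3 macrophage markers summed to 117 to 523 TPM and 524 to 1225. That sum was mostly C163A, the scavenger receptor CD163, at 101 to 508 TPM in ET-type and 504 to 1199 in L-type, while CD14 (8.16 to 16.3 and 6.92 to 20.9 TPM) and MRC1 (3.49 to 6.01 and 3.39 to 6.27 TPM) overlapped between the types. The 5 lymphocyte markers summed to 29.5 to 151 TPM and 74.5 to 487. None of these 10 markers was at 0 in a spleen library, and their part in the member differences was not tested. With mitochondrial transcripts and the 10 highest transcripts left out, 681 members passed, 620 lower and 61 higher. For this fit, the rescaled fit and the fits without single animals, the share of all transcripts called is not given here. Their counts are therefore not read as a result about the members.

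Members that were lower in ET-type spleen had their highest mean mostly in lung, as did many of the members tested in spleen. Of the 1287, 719 (55.9%) had their highest mean in lung, against 44.5% of the 6760 tested, and 237 (18.4%) in spleen, against 21.1%. An L-type assembly name was borne by 873 (67.8%), against 60.3% of those tested. Of the 57 that were higher, 25 (43.9%) had their highest mean in kidney, against 20.4% of those tested, and 24 did without the library labelled kidney of S0235. An ET-type name was borne by 34 (59.6%), against 39.7%. These shares are descriptions, with no test.

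The leading spleen members differed by several fold. Brain.ET.NODE_39042 (3253 bases) had 15.6, 38.2, 22.7, 8.04 and 76.4 TPM in ET-type spleens and 4.26, 0.296, 0.0769, 5.33 and 0.358 TPM in L-type. The groups did not overlap, and the log2 difference was 3.48 ± 0.649 (SE, adjusted p = 0.0259). It shared a locus with 1433Z, a 14-3-3 signalling adaptor, and did not follow it (r = 0.0982). Heart.ET.NODE_31451 (2309 bases) was at 25.9 to 49.3 TPM in ET-type and 0.173 to 17.1 TPM in L-type, a difference of 3.39 ± 0.601. Lymph.ET.NODE_76685 (1373 bases, predicted protein of 223 amino acids), Heart.ET.NODE_42087 and Heart.ET.NODE_44774 were higher by 2.18, 2.16 and 1.97 on the log2 scale.

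In the other direction, Kidney.L.NODE_24701 (3123 bases, predicted protein of 139 amino acids) had 0.0622, 2.10, 0.880, 0.0221 and 1.07 TPM in ET-type spleens and 4.94, 6.81, 6.63, 6.03 and 8.81 TPM in L-type. All L-type spleens were above all ET-type spleens, with a log2 difference of -2.17 ± 0.314 (SE, adjusted p = 0.0219). Brain.L.NODE_80517, Kidney.ET.NODE_13760 and Kidney.ET.NODE_6458 fell by 2.36, 2.34 and 2.30 on the log2 scale in ET-type. Heart.ET.NODE_62557 (1092 bases) fell by 2.30 with an adjusted p of 0.0480. Its ET-type spleens ran from 0 to 22.1 TPM and its L-type spleens from 25.1 to 57.2 TPM. The 10 named spleen calls kept their direction in all alternatives and lost the threshold in some, with adjusted p-values of at most 0.133.

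Both liver members that passed were near 0 in ET-type. Liver.L.NODE_69788 (1197 bases, no predicted protein) had 0.444, 0, 0.493, 0.142 and 1.26 TPM in ET-type livers and 11.05, 10.9, 11.7, 17.0 and 13.4 TPM in L-type. The groups were far apart, and the log2 difference was -3.27 ± 0.268 (SE, limma adjusted p = 0.000984). Liver.L.NODE_37905 (2424 bases, predicted protein of 106 amino acids) had 0.0985 to 0.436 TPM in ET-type and 5.19 to 6.90 TPM in L-type. Its log2 difference was -2.51 ± 0.197 with the same adjusted p. This call held in all 15 alternatives in which it could be tested, and that of Liver.L.NODE_69788 in 16 of 17, with an adjusted p of at most 0.053. Both names come from the L-type liver assembly.

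A larger difference in liver did not pass. Liver.ET.NODE_43464 (1784 bases) had 1929, 939, 575, 241.5 and 1401 TPM in ET-type livers and 19.1, 256, 16.2, 0.681 and 13.2 TPM in L-type. The types overlapped, since the L-type value of 256 exceeded the ET-type value of 241.5. The log2 difference was 5.46 ± 1.07 (SE) with an adjusted p of 0.235. Its locus held transcripts matched to GSTA1, a glutathione transferase of liver detoxification, and to LORF2. Over the 50 libraries it correlated with its LORF2 mate at r = 0.969.

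In lung the strongest call was Lung.L.NODE_45107 (2599 bases, no predicted protein). It had 0.164, 0.0698, 0, 0 and 0 TPM in ET-type lungs and 4.40, 7.05, 7.99, 4.11 and 2.95 TPM in L-type. The log2 difference was -2.53 ± 0.245 (SE, limma adjusted p = 0.00518), and the call held in all 15 alternatives in which it could be tested. Lung.L.NODE_77000, Lymph.L.NODE_78734 and Spleen.L.NODE_89513 were also lower in ET-type, by -2.32, -1.59 and -1.43 on the log2 scale. The most abundant of them, Spleen.L.NODE_89513 (1222 bases, predicted protein of 174 amino acids), was at 11.7 ± 1.89 TPM in ET-type and 33.7 ± 7.48 TPM in L-type (SD, n = 5 each). Higher in ET-type were Lymph.L.NODE_30542, by 1.51, Lung.ET.NODE_24054, at 8.10 ± 2.08 against 2.40 ± 0.300 TPM (SD, n = 5 each), and Lymph.ET.NODE_5956. Of these 6 further calls in lung, each was lost in several alternatives, where the adjusted p rose to between 0.0759 and 0.124.

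In heart the member that was lower in ET-type was Brain.L.NODE_89446 (1729 bases, predicted protein of 137 amino acids). It had 1.43, 0, 0, 0.706 and 0.658 TPM in ET-type hearts and 4.94, 7.94, 4.57, 10.3 and 5.12 TPM in L-type. The log2 difference was -2.31 ± 0.299 (SE, limma adjusted p = 0.0368). The member that was higher in ET-type heart was again Lymph.ET.NODE_5956. Brain.L.NODE_89446 kept its call in 6 of 15 alternatives, with an adjusted p of at most 0.145.

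In kidney, where no member passed, the smallest p-values belonged to Lymph.ET.NODE_5956 and Lung.L.NODE_30141, each with an adjusted p of 0.327. Lung.L.NODE_30141 (3486 bases) had 0 to 0.730 TPM in ET-type kidneys and 1.49 to 4.71 TPM in L-type, with no overlap. Heart.L.NODE_66548 (1175 bases) was listed at 0 in all 5 L-type kidneys. Its ET-type values were 8.31 TPM in the library labelled kidney of S0235 and 0.462 to 2.10 TPM in the others.

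Lymph.ET.NODE_5956 was 1 of 3 members whose types did not overlap in any tissue, and the one of them that was higher in ET-type. These 3 were 0.0231% of the 13006 members. Among the 34188 matched transcripts, 2 were higher and 1 was lower in ET-type in this way (0.00878%), so this was not particular to members. Lymph.ET.NODE_5956 is 6932 bases long with a predicted protein of 149 amino acids and no Swiss-Prot hit. In heart the ET-type values were 1.91, 2.24, 1.67, 2.55 and 1.96 TPM and the L-type values 0.0566, 0.377, 0, 0.311 and 0.0895 TPM. In lung they were 6.42, 6.65, 4.82, 6.26 and 3.02 TPM against 0.559, 1.11, 0, 0.789 and 0.699 TPM. In each of the 5 tissues the lowest ET-type library lay above the highest L-type library. In kidney the ET-type values were 14.8 TPM in the library labelled kidney of S0235 and 5.56, 4.80, 2.54 and 2.88 TPM in the others, against 0.0383 to 0.675 TPM in L-type. In spleen they were 2.34 to 5.73 TPM against 0.0794 to 0.784 TPM, and in liver 1.25 to 4.12 TPM against 0 to 0.214 TPM.

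By limma the difference in Lymph.ET.NODE_5956 passed in spleen (log2 difference 1.93 ± 0.235 SE, adjusted p = 0.0169), heart (1.40 ± 0.168, adjusted p = 0.0234) and lung (1.98 ± 0.265, adjusted p = 0.0294). It did not pass in liver (1.47 ± 0.245, adjusted p = 0.149) or kidney (2.13 ± 0.392, adjusted p = 0.327). Averaged over the 5 tissues of each animal, it was the single member of 9619 that passed, where 0.0108% of all transcripts did. Its log2 difference was 1.78 ± 0.171 (SE, 10 animals, adjusted p = 0.00773). Its adjusted p over animal means stayed below 0.05 in 16 of 17 alternatives and was at most 0.0594. The call held in 7 of 14 alternatives in heart and in 8 of 16 in lung.

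After the values were seen, members were counted whose types did not overlap, in 1 direction, in at least 4 of the 5 tissues. There were 5 of 13006 (0.0384%), where 0.0193% of all transcripts, 11 of 57085, showed this. Leaving out the library labelled kidney of S0235 gave the same 2 counts. The tissues of 1 animal are not independent, so the 5 tissues count the same 10 animals again, and no test was made of this count. Besides Lymph.ET.NODE_5956, all were lower in ET-type.

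Kidney.L.NODE_24701 was lower in ET-type in all 5 tissues. In lung it had 0.317 to 4.05 TPM in ET-type and 5.47 to 14.02 TPM in L-type, and in heart 0 to 1.57 against 2.03 to 3.59 TPM. Within ET-type, animals S0235 and S0309 had the lowest values in every tissue, at or below 0.532 TPM. Spleen.L.NODE_39815 (3145 bases) was also lower in all 5 tissues. In spleen it had 0 to 0.166 TPM in ET-type and 1.48 to 5.33 TPM in L-type, and in kidney 0 to 0.430 against 0.754 to 3.51 TPM. In heart its values were low in both types, at 0 to 0.353 against 0.402 to 0.732 TPM. By limma both members passed in spleen alone, with adjusted p-values of 0.0219 and 0.0215. Kidney.L.NODE_24701 did not pass in heart (0.126), kidney (0.479) or lung (0.16), nor Spleen.L.NODE_39815 in lung (0.0906). Their remaining tissues were below the level tested.

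The other members of this kind were Backfat.L.NODE_9955 (3960 bases) and Kidney.L.NODE_11412 (4572 bases), each lower in 4 tissues. By limma each passed in spleen alone, with adjusted p-values of 0.0472 and 0.0261. Backfat.L.NODE_9955 was the most abundant, with 29.8 ± 4.87 TPM in ET-type lungs and 61.9 TPM in L-type lungs on average. Under median-ratio scaling its types stayed apart in 2 tissues and those of Kidney.L.NODE_11412 in 3. The other 3 members stayed apart in all 5.

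**Figure D5:**
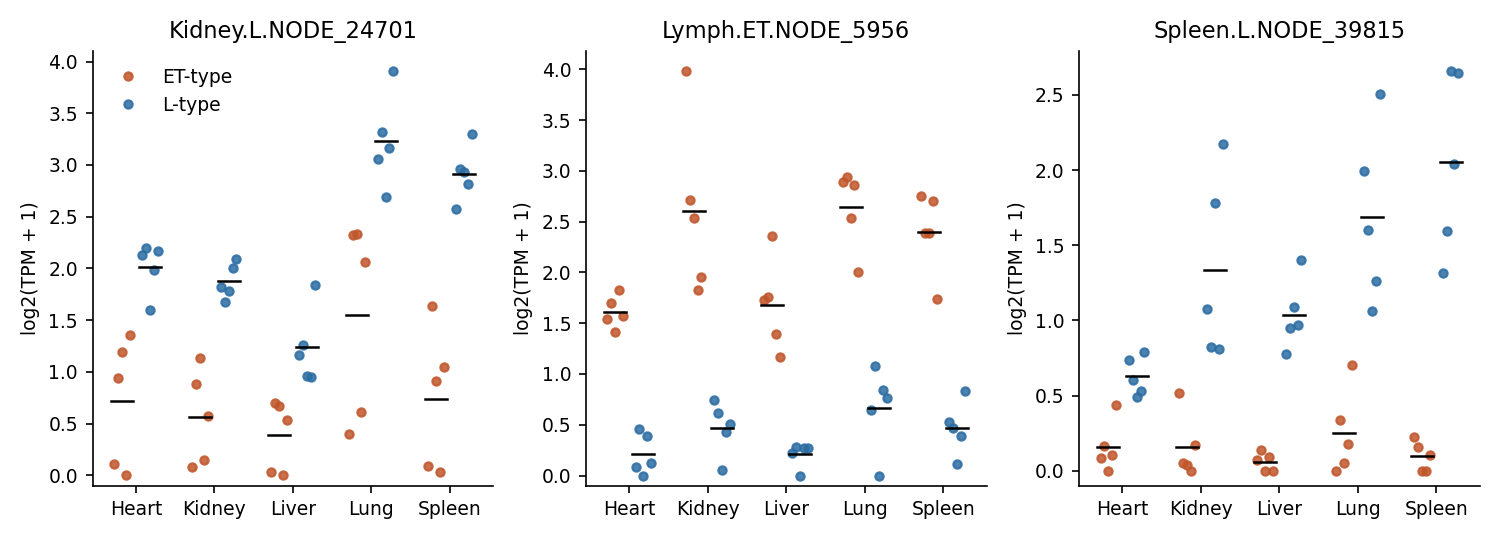
Levels, as log2(TPM + 1) on the vertical axis, of the 3 members whose types did not overlap in any of the 5 tissues, with 1 point per library, coloured by ET-type or L-type, and a line at each group's mean. In Lymph.ET.NODE_5956 all ET-type points lie above all L-type points in every tissue, and in Kidney.L.NODE_24701 and Spleen.L.NODE_39815 they lie below.

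Whether the difference between the types itself differed between tissues was tested by the interaction of type and tissue over the 50 libraries, with the animal as a block. Of 9619 tested members 517 (5.37%) passed, where 5.06% of all transcripts did, and 953 passed without the library labelled kidney of S0235. The largest difference lay in spleen for 31.5% of the 517, 161 of them lower and 2 higher in ET-type, and in kidney for 120, 112 of them lower. Without the library labelled kidney of S0235 it lay in spleen for 464 of the 953, 458 of them lower, and in kidney for 107, 101 of them lower. Among the 517 it lay in lung for 98, of which 73 were lower in ET-type. The directions were mixed in liver, where 41 of 78 were higher in ET-type, and in heart, where 37 of 58 were. The sign was the same in all 5 tissues for 23. The count was unstable to single animals. It was 1171 without S0309, 240 without S0377, 225 without S0349, 204 without S0384, 189 without S0326 and 91 without S0385, and 251 under median-ratio scaling. The shares over all transcripts in these settings, and in the fit that gave 953, are not given here. These counts are therefore not read as a result about the members.

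The members with the smallest interaction p-values were expressed in 1 or 2 tissues. A member near 0 in the other tissues can differ between the types only where it is expressed. The fit also shared the variance over all libraries, those near 0 included. Of the 5 members below, only Liver.L.NODE_69788 also passed in the comparison of the types within its own tissue. Liver.L.NODE_69788, described above for liver, also had 1.15 ± 1.29 TPM in ET-type kidneys and 5.35 ± 2.79 TPM in L-type kidneys (SD, n = 5 each), and was at or below 1.08 TPM in the other tissues. Its interaction had an adjusted p of 8.46e-09 in limma. Lung.ET.NODE_56234 (1689 bases) was listed at 0 nearly everywhere outside lung. In lung it had 21.9, 26.6, 17.4, 10.9 and 33.7 TPM in ET-type and 5.37, 3.82, 3.48, 9.05 and 4.23 TPM in L-type, with no overlap and an adjusted interaction p of 5.22e-08.

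The remaining members of this group were heart transcripts that were lower in ET-type. The heart marker sum was also lower there, at 22065 to 65029 TPM in ET-type hearts (median 42583) and 63392 to 78037 TPM in L-type (median 70563). The hemoglobin sum was higher, at 128 to 1150 TPM in ET-type and 13.2 to 133 TPM in L-type hearts. The part of these marker differences in the member differences was not tested. Heart.L.NODE_12700 (4754 bases) had 3.28, 4.55, 4.18, 6.11 and 3.13 TPM in ET-type hearts and 10.4, 9.13, 6.95, 14.3 and 11.7 TPM in L-type. No other tissue's library exceeded 0.0240 TPM. Heart.L.NODE_3716 (7379 bases) and Heart.L.NODE_7512 (5897 bases) came from the same locus, and both had a predicted protein of 137 amino acids. Heart.L.NODE_3716 had 2.11 ± 0.610 TPM in ET-type hearts and 8.96 ± 4.72 TPM in L-type, and Heart.L.NODE_7512 had 1.98 ± 1.64 and 8.06 ± 3.78 TPM (SD, n = 5 each). Their groups touched only in Heart.L.NODE_7512, where an ET-type heart at 4.74 TPM exceeded an L-type heart at 3.76 TPM. Sharing a locus, they are not independent of each other.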

How the data were processed

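Stranded messenger RNA libraries of 5 tissues from 5 ET-type and 5 L-type pigs were analysed, 50 libraries in all. The deposited values are TPM per assembled transcript. Trimmomatic 0.36, Salmon 1.10.0 and the build Sscrofa11.1 are named, with no roles, per the submitters' processing notes. The assembler and its reads are not given in the sources used here. Read depth is unknown from TPM, so only the spread between animals measures precision.

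Members were taken by the absence of a Swiss-Prot BLASTX hit and a length of at least 1000 in the name. The members, the marker lists and the rule for named transcripts were chosen with earlier results of these data known. The columns for Pfam domains and signal peptides hold no entries, so the alternative definition without any protein evidence reduced to members without a BLASTP hit. No sequences are printed here.

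limma 3.58.1 in R 4.3.3 was run with a mean-variance trend on log2(TPM + 1), over all transcripts with a mean of at least 1 TPM in the libraries of the fit, with Benjamini-Hochberg adjustment over all of them and a threshold of 0.05. Fold changes are on that scale, and the pseudocount understates those of low transcripts. The interaction was an F test of its 4 terms with the animal as a block (duplicateCorrelation on every 10th transcript, consensus correlation 0.154). The procedure was tested on simulated data. Differences between the types are ET-type minus L-type.

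The rule for named transcripts took, in each type comparison, up to 5 members per direction with the largest differences among those that passed with groups apart, or the 3 smallest p-values where none passed. It also took the 3 highest members and the 3 largest called differences per tissue, the 3 longest, the 3 on each side of the length limit, the 5 smallest interaction p-values and the 3 lowest coefficients of variation at a mean of at least 10 TPM.

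The animals pair the libraries across tissues, since the labels give the same animal number. Deviations from the group means correlated at a mean r of 0.392 between tissues of the same animal, above 0.1 in 100 of 100 pairs, and at -0.0983 between different animals. Alternatives covered the pseudocount, the filter, median-ratio scaling (computed over the libraries of each fit, and over all 50 for the counts of members), leaving out mitochondrial and the 10 highest transcripts, robust limma, the block, the length limit and each animal. The shares without the library labelled kidney of S0235, that library left out together with median-ratio scaling, the animal means without spleen, the interaction without the highest transcripts, and the assembly name shares by scaling and animal were chosen after seeing the data, as was leaving out each animal for tau and the count of members at 1 TPM. Python 3.11.15 with pandas 2.3.3, numpy 2.4.6, scipy 1.17.1 and matplotlib 3.10.9 was used for the rest.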

Additional observations from a re-analysis of the deposited data

Results flagged for a closer look

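Among 94 groups of 5 libraries, 9 held a library far from the other 4 (a gap of more than 0.71 of the group's range). That limit gives about 1 in 20 groups only for normally distributed values in independent groups. TPM of single members need not be normal and the groups share libraries, so the 9 are not read against that rate. In L-type hearts, animal S0377 had 3844 members at 1 TPM, against 5065 to 5370 in the others. In ET-type hearts, animal S0309 had 4965 TPM of Lymph.ET.NODE_86923, against 515 to 1366, and 2668 TPM of Lung.ET.NODE_30735, against 182 to 655, so the same library stood out for both of these abundant members. In ET-type kidneys, animal S0242 had 1487 TPM of Lymph.ET.NODE_86923, against 155 to 522. In L-type kidneys, animal S0349 had 935 TPM of Tenderloin.L.NODE_49188, against 289.8 to 467.

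The other libraries far from their group were at low levels. In L-type lungs, animal S0355 had 0.114 TPM of Lymph.L.NODE_30542, and the others were listed at 0. In L-type spleens, animal S0349 had 17.1 TPM of Heart.ET.NODE_31451, against 0.173 to 3.99, and animal S0385 had 4.64 TPM of Lymph.ET.NODE_76685, against 0 to 0.674. In ET-type spleens, animal S0235 had 4.46 TPM of Kidney.ET.NODE_6458, against 0 to 1.08.

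The difference between the types itself differed between tissues, by the limma interaction test, for the members with its smallest p-values. The adjusted p was 8.46e-09 for Liver.L.NODE_69788, 5.22e-08 for Lung.ET.NODE_56234, 2.09e-06 for Heart.L.NODE_12700, 2.09e-06 for Heart.L.NODE_3716 and 4.69e-05 for Heart.L.NODE_7512. All 70 alternatives run for these 5 members stayed below 0.05, and all of them shared the variance across tissues in the same way.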

How the results depend on the processing

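None of the named tissue or type calls changed direction in any alternative run for it. Counts and shares were only marked as kept or moved, so they could not show a reversal. Values that moved are counts of members called unless said otherwise. Most stand without the share over all transcripts, so they describe only how the member counts moved. In the fit over all 50 libraries with the animal as a replicate block, the type counts were 95 in heart, 414 in kidney, 103 in liver and 191 in lung. That fit changed the libraries, the shared variance and the filter along with the block. The interaction without the replicate block gave 147. Adding or removing the block changed no other count by over 1.5 times. At pseudocount 0.1 the type counts were 0 in heart, 1 in liver, 3 in lung and 0 over animal means, and the interaction gave 291. Without a filter they were 1 in heart and 5 over animal means. With a mean of at least 5 TPM they were 0 in heart, 1 in liver, 0 in lung and 0 over animal means, and 143 (7.63% of tested) in spleen, and tissue calls were 148 for heart, 261 for kidney, 254 for liver, 539 for lung and 278 (12.8%) for spleen. Fewer transcripts are tested there. Median-ratio scaling gave 2.50% of tested members in the spleen type comparison, 2 over animal means, 251 for the interaction, and 900 in heart and 1122 in lung for the tissues, or 884 and 1099 with the library labelled kidney of S0235 also left out. That library left out alone gave 953 for the interaction. Without mitochondrial and the 10 highest transcripts, 1 passed in heart, 681 (8.82%) in spleen and 2 over animal means, and heart was called for 799. Leaving out the spleen libraries gave 2 over animal means. At a length limit of 500 bases, 14 passed in lung and kidney was called for 1819. At 2000 bases the type counts were 1 in heart, 1 in liver, 4 in lung and 708 (20.9%) in spleen, the tissue calls 283 for heart, 437 for kidney, 454 for liver, 1248 for lung and 7.29% of tested members for spleen, and the interaction 259. At 2000 bases 6122 members had a tissue mean of 1 TPM, and 5431 members reached 5 TPM. The tau difference was 0.0578 on linear TPM and 0.151 at 5 TPM. The share highest in the tissue of the name was 60.3% at 5 TPM and 62.0% under median-ratio scaling. Except where the change itself removes transcripts or libraries, the cause was not tested. Leaving out 1 animal gave 0 to 92 in heart, 2 to 4 in liver, 1 to 26 in lung, 0 to 1 in kidney, 5 to 1559 (0.0766% to 23.1%) in spleen and 1 to 5 over animal means for the types, and 91 to 1171 for the interaction. For the tissues it gave 467 to 510.0 for heart, 1057 to 1352 for kidney, 791 to 871 for liver, 2326 to 2543 for lung and 693 to 764 for spleen. The members at 1 TPM numbered 11590 to 11686, the tau difference was 0.112 to 0.115 and the share highest in the tissue of the name 64.3% to 64.8%. All 285 alternatives run for the 15 named tissue calls kept them, while of 354 run for named type calls 224 kept the call and 130 lost it with the direction unchanged. Depth is unknown from TPM, so levels under 1 TPM limit what can be compared.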
